A study of Mus musculus with 12 samples.

Results

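Replication-dependent histone genes encode the histones that are made in bulk when a cell copies its DNA. They were taken here as every gene of the deposited expression table whose symbol begins with Hist1h, Hist2h, Hist3h or Hist4h, which gave 67 of 26061 genes. The symbols put 6 of them in class H1 (linker histone), 19 in H2A, 18 in H2B, 11 in H3 and 13 in H4 (the 4 core histones). By cluster, 55 are Hist1 genes, 9 are Hist2 genes, 2 are Hist3 genes and 1 is a Hist4 gene. All 67 passed the filter on low values, so the counts below are over all members.

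The libraries came from E14 mouse embryonic stem cells (strain background 129/Ola), grown on gelatin with no feeder cells. Each of 4 groups had 3 libraries. Cells in 2i medium, which the labels call naive, carried the lentiviral pLKO.1 vector with a short hairpin RNA against Setdb1 (shSetdb1) or with a scrambled one (shScr). Cells in serum medium, which the labels call primed, carried the same vectors. The 2i medium, made with N2 and B27 supplements, holds LIF and the inhibitors PD0325901 and CHIR99021, and the serum medium holds fetal bovine serum and LIF. All cells, controls included, were infected, selected with puromycin and collected after 3 days of selection. SETDB1 is a histone H3 lysine-9 methyltransferase, and the question put by the design is what its depletion changes in each medium. The labels name 1 hairpin against Setdb1 and no rescue, so depletion of SETDB1 and any other action of that hairpin cannot be told apart. Nothing in the labels ties the 3 libraries of a group to independent cultures, and each p-value below therefore rests on library-to-library spread, which may be technical.

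Most metazoan mRNAs end in a poly(A) tail, but those of replication-dependent histone genes end just after a conserved stem-loop. The stem-loop binding protein (SLBP) and the U7 small nuclear ribonucleoprotein direct the cut there, and the mRNAs build up in S phase and are destroyed when replication stops. Libraries made from total RNA after removal of ribosomal RNA, as here, can hold such mRNAs, whereas poly(A) selection would lose most of them. A small number of family members, among them Hist1h1t (histone H1t), Hist1h2aa (TH2A) and Hist1h2ba (TH2B), are best known from male germ cells in mice.

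The stem-loop is the sequence that defines the family, and it is shown with 5 bases on each side for members that recur below. The transcript sequences are from GENCODE M21 (GRCm38), the stem-loop of 16 bases is in capitals, and T stands for U.
Hist2h2aa1: aaaaaGGCTCTTTTCAGAGCCaccca
Hist2h3c1: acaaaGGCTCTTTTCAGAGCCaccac
Hist1h2bk: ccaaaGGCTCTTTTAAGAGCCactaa
Hist1h1t: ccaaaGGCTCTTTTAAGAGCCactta
Hist1h4d: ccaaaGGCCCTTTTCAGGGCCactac
Hist4h4: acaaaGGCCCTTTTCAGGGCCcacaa
The search took any 16 bases on the transcript strand that open with GG, close with CC, pair over 6 bases with a T opposite an A next to the loop, and leave 4 bases unpaired. It was found in annotated transcripts of 45 members, as 8 different sequences, starting 21 to 58 bases after the stop codon. The 33 stem-loops of H1, H2A, H2B and H3 genes all began with GGCTC. Among H4 genes, 12 of 13 had a stem-loop, and it began with GGCCC in 10 and with GGTCC in 2. The stem pair that differs between the sequences above thus followed the class. For 22 members no stem-loop was found, and several of their annotated transcripts, Hist2h2bb and Hist1h2ba among them, end at the stop codon. Of these 22, Hist1h2al has no annotated coding sequence and was not searched. In 23 members the annotated transcript ran on for more than 60 bases past the loop, as it does for Hist1h1t and Hist4h4.

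The promoters also split by class. RefSeq promoter windows (GRCm38.p6, 250 bases before to 50 after the start) matched 60 members, and the letters CCAAT, on either strand, stood in all 48 of those of H1, H2A, H2B and H3 genes. They stood in 3 of 12 H4 windows (25%) and in 37.4% of all 32851 RefSeq windows. TATAAA was in 58.3% of the members' windows and in 13.6% of all windows. ATTTGCAT, the octamer known from H2B promoters, was in 7 of 16 H2B and 7 of 17 H2A windows and in no H1, H3 or H4 window, against 1.74% of all. AAACACA, known from H1 promoters, was in 5 of 6 H1 windows and in 7.18% of all. There were 9 pairs of an H2A and an H2B gene whose windows overlapped on opposite strands, so that a motif there was counted for both. A match is only a match of letters. The windows of Hist1h1a, the most abundant H1 gene, and of Hist1h1t and Hist1h2aa, the members with the largest differences between media in shScr cells, are given here with these motifs in capitals on either strand.
Hist1h1a, chr13:23763418-23763717, plus strand: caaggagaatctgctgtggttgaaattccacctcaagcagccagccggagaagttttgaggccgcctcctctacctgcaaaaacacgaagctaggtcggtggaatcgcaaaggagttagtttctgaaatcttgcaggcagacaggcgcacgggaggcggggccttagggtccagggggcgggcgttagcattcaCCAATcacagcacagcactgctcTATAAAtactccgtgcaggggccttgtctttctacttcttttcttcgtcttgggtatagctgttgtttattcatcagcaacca
Hist1h1t, chr13:23695561-23695860, plus strand: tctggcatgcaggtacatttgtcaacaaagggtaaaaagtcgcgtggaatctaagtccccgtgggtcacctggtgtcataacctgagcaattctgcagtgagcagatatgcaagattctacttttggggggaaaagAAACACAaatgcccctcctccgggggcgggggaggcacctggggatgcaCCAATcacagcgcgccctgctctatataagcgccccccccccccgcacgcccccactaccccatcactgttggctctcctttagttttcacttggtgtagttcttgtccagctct
Hist1h2aa, chr13:23934187-23934486, plus strand: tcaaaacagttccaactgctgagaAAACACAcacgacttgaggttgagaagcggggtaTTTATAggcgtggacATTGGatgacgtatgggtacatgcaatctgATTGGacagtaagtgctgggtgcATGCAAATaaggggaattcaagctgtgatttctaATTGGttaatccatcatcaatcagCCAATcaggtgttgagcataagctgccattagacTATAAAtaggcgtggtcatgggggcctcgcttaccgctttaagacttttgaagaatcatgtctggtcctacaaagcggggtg
The Hist1h2aa window shares 220 bases with that of Hist1h2ba, which is transcribed the other way.

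Gene reads per library numbered 4821181 to 15509401, as recovered from the deposited values. Setdb1 had 837, 610.2 and 340.1 normalised reads (reads divided by the library's size factor) in shSetdb1 cells in 2i, against 3607, 2724 and 2253 in shScr cells in 2i. In serum it had 418, 379 and 409 in shSetdb1 cells, against 2959, 2237 and 1587 in shScr cells. The labels and the targeted gene thus go together in all 12 libraries. Markers of embryonic stem cells (8 genes, Pou5f1 and Sox2 among them) summed to 37851 to 80036 normalised reads in every library, while 8 fibroblast markers summed to 30.3 to 799, 6 primitive endoderm markers to 0 to 136, and 5 trophoblast markers, Elf5 at 0 throughout, to 2.77 to 459. Naive markers (5 genes, Klf4 and Klf2 among them) summed to 2962 to 5095 in shSetdb1 cells and 4122 to 6532 in shScr cells in 2i. In serum they summed to 2090.1 to 2651 in shSetdb1 cells, against 4047 to 5572 in shScr cells, with no overlap. Primed epiblast markers (4 genes, Otx2 and Dnmt3b among them) summed to 849 to 3821 in shSetdb1 cells and 789 to 1677 in shScr cells in 2i, and to 1749 to 10678 in shSetdb1 cells and 979 to 4527 in shScr cells in serum. The highest fibroblast sums were in shSetdb1 cells in 2i, 164 to 799, against 30.3 to 72.8 in shScr cells in 2i. Lum gave 736, 102 and 542 of the reads in those shSetdb1 libraries, while the collagen genes Col1a1, Col1a2 and Col3a1 had at most 15.3 in any library. The part of these markers in the histone values was not tested.

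The family was unevenly used. Per kb of coding sequence, Hist2h2bb, an H2B gene, had the highest mean level over the 12 libraries, 68595 normalised reads per kb, followed by the H4 gene Hist1h4d with 32060 and by Hist1h1a with 23981. The H2A gene Hist2h2aa1 (22930.4 per kb) and the H3 gene Hist2h3c1 (22336 per kb) came next. Hist2h2bb was the highest member in each of the 12 libraries, whereas Hist1h1a lay above Hist2h2aa1 in some libraries and below it in others. At the low end stood Hist1h1t with 222, Hist3h2ba with 89.6 and Hist2h2be with 25.6 per kb. Medians over the genes of a class were 9134 per kb for H1, 5921 for H2A, 5273 for H2B, 1962 for H3 and 6823 for H4. Reads outside the coding sequence count towards these levels, so members with long annotated tails are overstated against the others. The 5 most abundant members held 29.5% to 37.0% of the family's reads in a library, and the 20 most abundant held 64.2% to 71.6%. Genes of the Hist1 cluster held 67.7% to 76.4% and the 9 Hist2 genes 20.9% to 30.5%.

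**Figure D1:**
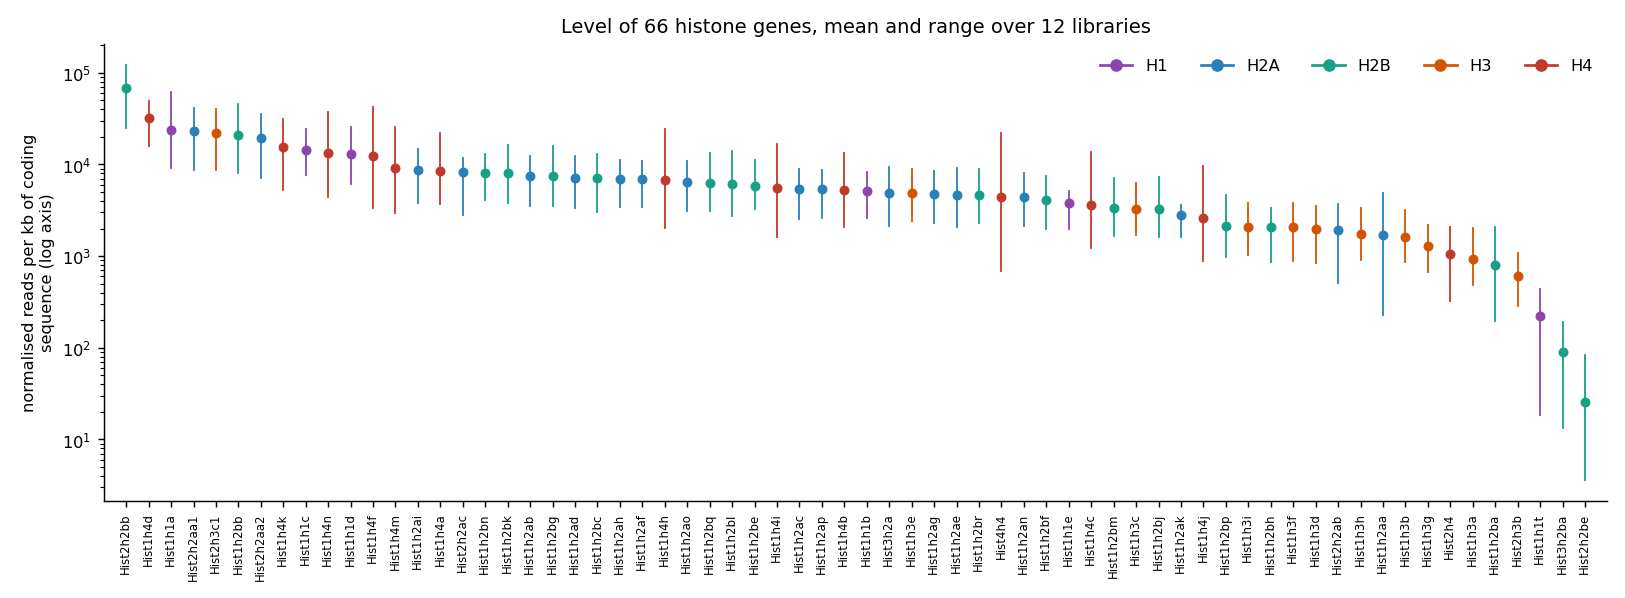
Level of the 66 members with an annotated coding sequence, in normalised reads per kb of coding sequence (log axis), in descending order of the mean (dots); lines run from the lowest library above 0 to the highest of the 12 libraries, and colours mark the class. Hist2h2bb stands at 68595 per kb, and Hist1h1t, Hist3h2ba and Hist2h2be stand at the low end with 222, 89.6 and 25.6.

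Many members are near copies, and their values are not independent. Of the 66 coding members, 10 shared every 50-base window of their coding sequence with another member, 49 shared at least 50% of such windows, and 7 shared none. How reads that fit several copies were counted is not given in the sources used here, so values of single members with near copies are uncertain. Hist1h1t, Hist2h2bb, Hist2h2be, Hist4h4 and Hist1h1a shared no window, and Hist1h2aa shared 2.35% of its windows, whereas Hist2h2aa1 shared all. Reads of Hist2h3c1 were 1.01 to 1.04 times those of its neighbour Hist2h2aa1 in every library. In GENCODE M21 the exons of both genes overlap those of 1 gene model, Gm20634, on the same strand, so the pair may not be separate measurements. Exons of 5 other members overlapped another gene on the same strand, among them Hist2h2bb with Gm42743 (226 bases), Hist3h2a with Trim17 and Hist1h1e with Hist1h2be. On the opposite strand, exons of 22 members overlapped another gene, among them Hist2h2bb with Gm20628 (381 bases). Whether reads were counted by strand is not given in the sources used here, so these levels are uncertain too.

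Summed over the 67 members, the libraries held 90670.0, 180438 and 390933 normalised reads in shSetdb1 cells in 2i (replicates 1 to 3), against 169800.0, 105538 and 268438 in shScr cells in 2i. In serum the sums were 150679, 151383 and 243065 in shSetdb1 cells, against 219277, 200141 and 346794 in shScr cells. Replicate 3 was the highest in each of the 4 groups, and shSetdb1 and shScr libraries overlapped in both media. As a share of gene reads the family ranged between 0.852% (95% Wilson interval 0.848% to 0.857%) in replicate 1 of shSetdb1 cells in 2i and 3.28% (3.27% to 3.29%) in replicate 3 of shScr cells in serum. These intervals cover counting error only. The spread within groups was widest in shSetdb1 cells in 2i, where the highest library held 4.31 times the lowest, against 2.54 times in shScr cells in 2i, 1.61 times in shSetdb1 cells in serum and 1.73 times in shScr cells in serum.

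**Figure D2:**
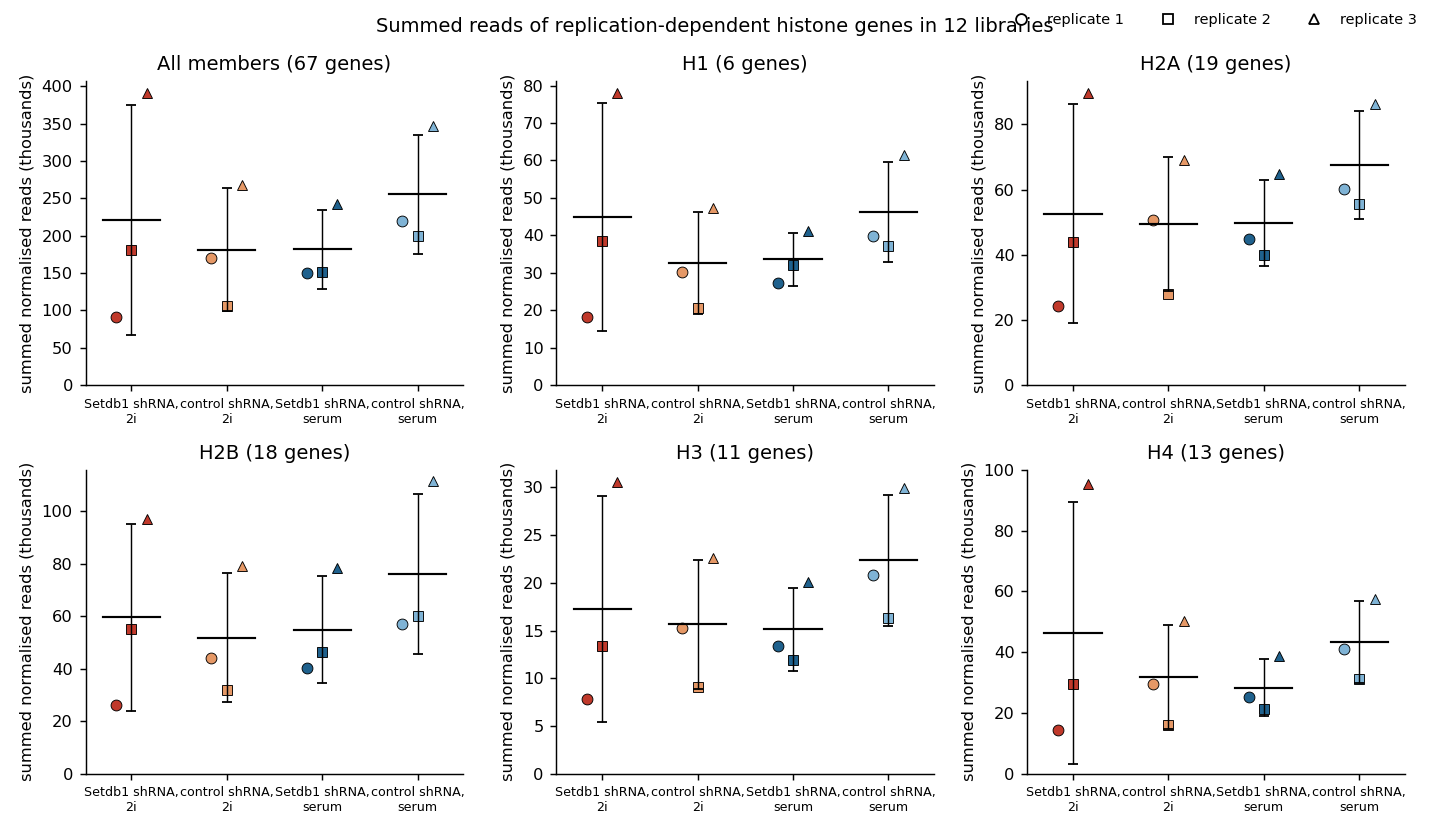
Summed normalised reads, on an axis in units of 1000 reads, of all 67 members and of each class in 12 libraries; symbols are replicates 1 to 3, horizontal lines are group means and error bars 1 SD (n = 3 each). Replicate 3 is the highest library of every group in every panel, and the shSetdb1 and shScr libraries overlap in each medium.

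Group means of the share of each class in the family's reads were widest apart for H4, at 15.5% to 18.9%, with no test run on the shares. H1 genes held 20.4% ± 0.79 of the family's reads in shSetdb1 cells in 2i and 18.3% ± 1.02 in shScr cells in 2i, and 18.8% ± 2.23 in shSetdb1 cells in serum and 18.2% ± 0.41 in shScr cells in serum (SD, n = 3 each). H2B genes held 28.1% ± 2.95, 28.6% ± 2.37, 29.8% ± 2.87 and 29.4% ± 3.07 in the same groups. For H3 genes the shares were 7.96% ± 0.60, 8.67% ± 0.31, 8.35% ± 0.52 and 8.76% ± 0.67. H2A genes held 24.7% ± 1.89, 27.4% ± 2.21, 27.5% ± 1.87 and 26.7% ± 1.57. H4 genes held 15.9%, 16.3% and 24.4% in shSetdb1 cells in 2i, against 17.5%, 15.1% and 18.7% in shScr cells in 2i. Replicate 3 of the shSetdb1 cells in 2i held 6.64 times the H4 reads of replicate 1, against ratios of 3.71 to 4.31 for the other classes in that group.

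Single members varied together from library to library. After the group means were removed, the correlation of a member with the mean of the other members over the 12 libraries had a median of 0.96, and it exceeded 0.9 for 49 of the 67 members, against 2.14% of all genes kept. All genes of a library share its depth and size factor, so the value is a description. Replicate 3 was the highest library of all 4 groups for 50 members (74.6%), against 8.81% of all genes kept. The members least tied to the rest were Hist2h2be (r = 0.04), Hist1h2aa (0.30), Hist1h1t (0.50) and Hist3h2ba (0.59). Of these, Hist2h2be was near the floor, with 6.15, 0 and 0 normalised reads in shSetdb1 cells in 2i, 5.06, 1.38 and 12.9 in shScr cells in 2i, 7.61, 9.26 and 16.3 in shSetdb1 cells in serum, and 31.5, 3.55 and 23.5 in shScr cells in serum. Members with a stem-loop found and the others moved alike. The median correlation was 0.93 for the 22 members with none found, Hist1h2al, which was not searched, among them. It was 0.97 both for the 22 whose transcript ends near the loop and for the 23 whose transcript runs on. By shared sequence, it was 0.97 for the 49 coding members sharing at least 50% of their windows and 0.86 for the 17 sharing under 50%.

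The same libraries differed in other short or structured RNAs, and values for short genes, structural RNA or both stand beside each comparison of the members below. The deviation of the members from their group mean (median, log2) was -0.87, -0.22 and 1.01 in shSetdb1 cells in 2i, 0.00, -0.62 and 0.52 in shScr cells in 2i, -0.16, -0.30 and 0.46 in shSetdb1 cells in serum, and -0.07, -0.31 and 0.40 in shScr cells in serum. For 783 other genes with no transcript of 1000 bases or more it was -0.62, 0.11 and 0.50, then -0.09, -0.24 and 0.33, then -0.38, -0.04 and 0.42, then -0.27, 0.06 and 0.20 in the same libraries. Genes of 8000 bases or more (721) went the other way in most libraries, with 0.52, -0.17 and -0.37 in shSetdb1 cells in 2i. Structural RNA families (small nuclear, ribosomal, transfer and similar RNAs, 82 families) held 15.3% to 69.3% of the reads of the repeat table. The 4 small structured RNA genes kept in the gene table deviated by 0.16, -0.16 and -0.03 in shSetdb1 cells in 2i. In replicate 3 of the other groups they deviated by 0.09 in shScr cells in 2i, 0.30 in shSetdb1 cells in serum and -0.15 in shScr cells in serum. Over the 12 libraries, with group means removed, the members' mean correlated with the log2 of that share (r = 0.83) and with the short genes (r = 0.87). With 44 S-phase and replication genes r was -0.02, and with 30 G2 and mitosis genes it was -0.88. With 10 genes of replacement and variant histones r was 0.78, and with 12 genes of G1 control it was 0.20. With 22 genes for histone pre-mRNA processing and the histone locus body r was -0.75, and with 19 histone chaperone and import genes it was -0.84. In serum, the 3 primed epiblast markers that were kept deviated by -1.60 in replicate 3 of shSetdb1 cells and by -1.39 in replicate 3 of shScr cells, the libraries where histone members were highest. In 2i they deviated by -0.20 in both replicates 2 and 3 of shSetdb1 cells and by -0.38 in replicate 3 of shScr cells. The 5 naive markers deviated by -0.08 in replicate 3 of shSetdb1 cells and by 0.52 in replicate 3 of shScr cells in serum. The part of RNA composition or of cell state in the histone values was not tested.

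**Figure D3:**
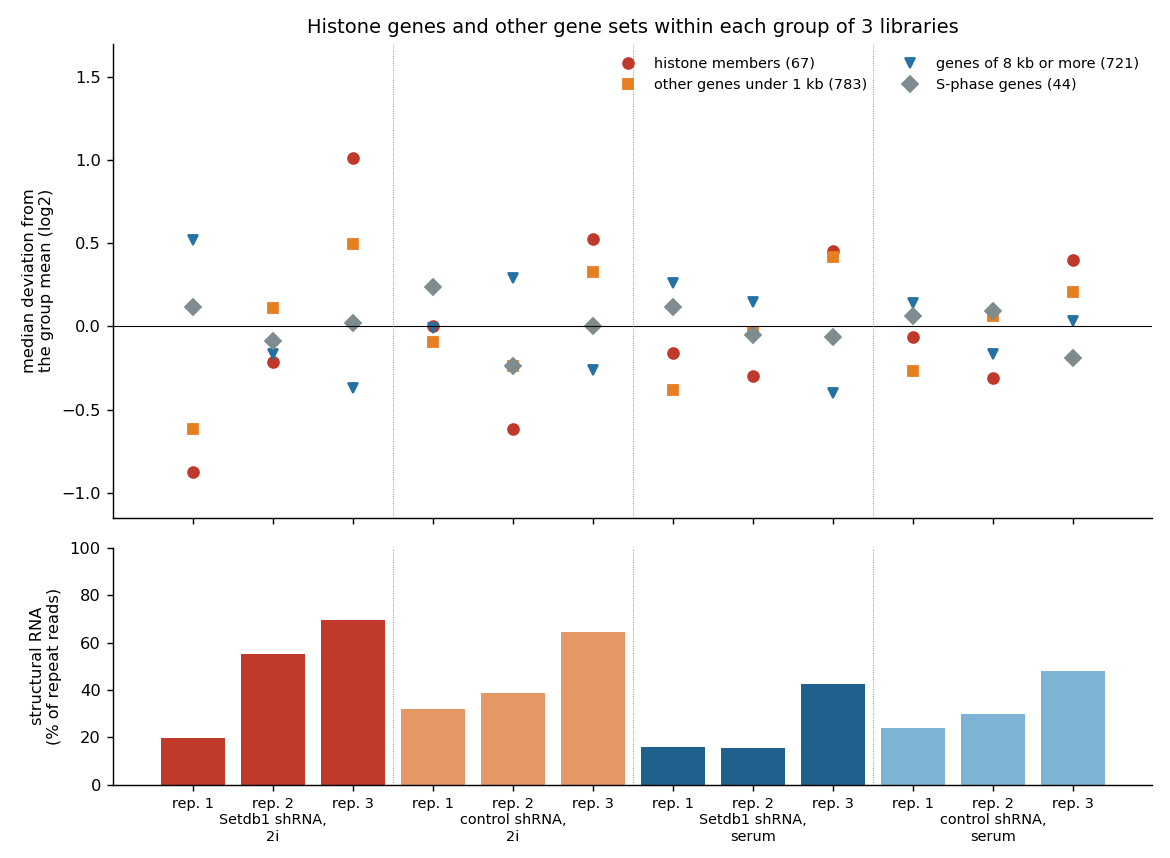
Upper panel, median deviation from the group mean (log2) of the 67 members, of 783 other genes under 1000 bases, of 721 genes of 8000 bases or more and of 44 S-phase genes in each library; lower panel, structural RNA as a percentage of repeat-table reads. Histone members and short genes are above 0 in replicate 3 of every group, where the structural share is also the highest of its group.

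No histone gene passed the test for a change with the hairpin in serum, although the fitted values of most members lay lower in shSetdb1 cells. By limma with Benjamini-Hochberg adjustment over the 14487 genes kept, 0 of 67 members passed an adjusted p of 0.05 (0 also at an unadjusted p under 0.05), against 0.649% of all genes kept (0.601% higher and 0.0483% lower). With the replicate number as a block within medium, since the numbers pair libraries in serum, the count was 0 members and 211 genes, against 94 genes without it. The fitted change, shSetdb1 over shScr on the deposited log2 scale, was below 0 for 61 members, against 50.2% of all genes kept. Its median was -0.53 over the members and 0.00 over all genes, with a median standard error of 0.45 for a member. By class the medians were -0.33 for H1, -0.44 for H2A, -0.56 for H2B, -0.53 for H3 and -0.70 for H4. For the 49 coding members sharing at least 50% of their windows the median was -0.56, and for the 17 sharing under 50% it was -0.24. In 2i the same 2 sets had medians of 0.22 and 0.26. In 8 members all shSetdb1 libraries lay below all shScr libraries (11.9%, against 3.59% of all genes kept), and in 0 they lay above (6.12% of all genes). Same-numbered libraries held 0.687, 0.756 and 0.701 times the family's reads (shSetdb1 over shScr), and 0.667, 0.517 and 0.883 times the structural RNA share. With that share as a covariate the median of the members was -0.09, and 1 of 67 members, Hist3h2a, passed as higher, against 1.53% of all genes kept in that fit. Naive markers were also lower in shSetdb1 cells in serum, with a median change of -0.83 over 5 genes, 0 of which passed. Bulk libraries do not tell fewer cells in S phase with full levels of histone mRNA apart from less histone mRNA in each cell.

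The lowest and the highest fitted change in serum, those of Hist4h4 and Hist1h2aa, are given with other H2A genes to show how wide the libraries lay. Hist4h4, the only gene of the Hist4 cluster, had 519, 215 and 1019 normalised reads in shSetdb1 cells, against 926, 679 and 1641 in shScr cells, a log2 change of -0.98 ± 0.80 (SE). The groups overlap, and replicate 3 was the highest in both. Hist1h2af, an H2A gene, had 2574, 1738 and 2895 in shSetdb1 cells, against 3918, 3442 and 4311 in shScr cells (log2 change -0.71 ± 0.40), with no overlap. Hist2h2ac, an H2A gene of the Hist2 cluster, had 2661, 2591 and 2623 in shSetdb1 cells, against 3779, 4294 and 4355 in shScr cells (-0.65 ± 0.39). The groups of Hist2h2ac did not overlap and its 3 shSetdb1 libraries were close together, and replicate 3 did not stand out. Hist1h2aa lay on the other side, with 837, 1889.9 and 989 in shSetdb1 cells, against 519, 1019.9 and 615 in shScr cells (0.72 ± 0.52). Hist3h2a, an H2A gene of the Hist3 cluster named here after its values were seen, had 1374, 1848 and 3705 in shSetdb1 cells, against 850.0, 1405 and 1829 in shScr cells (0.68 ± 0.49). Both pairs of groups overlap, and all 5 genes of this paragraph had an adjusted p of 1.

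Other members chosen by the same rule follow, and of these Hist1h2bk and Hist1h3f had lower fitted changes than Hist1h2af and Hist2h2ac. Of H1 genes, Hist1h1d (H1.3) had 6509, 5665 and 11596 in shSetdb1 cells, against 9878, 9287 and 17214 in shScr cells. Hist1h2bk had 1776, 1828 and 3629 in shSetdb1 cells, against 4099, 2648 and 5705 in shScr cells (log2 change -0.79). For Hist1h3f the values were 622, 542 and 1003, against 1214, 844 and 1576 (-0.72). All 3 overlap between groups and have replicate 3 on top. Hist3h2ba, a low H2B gene, had 35.0, 49.7 and 45.1 in shSetdb1 cells, against 17.4, 28.4 and 73.8 in shScr cells. The H4 gene Hist2h4 had 231, 423 and 292 in shSetdb1 cells, against 280.1, 205 and 323 in shScr cells (log2 change 0.18 ± 0.51).

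**Figure D4:**
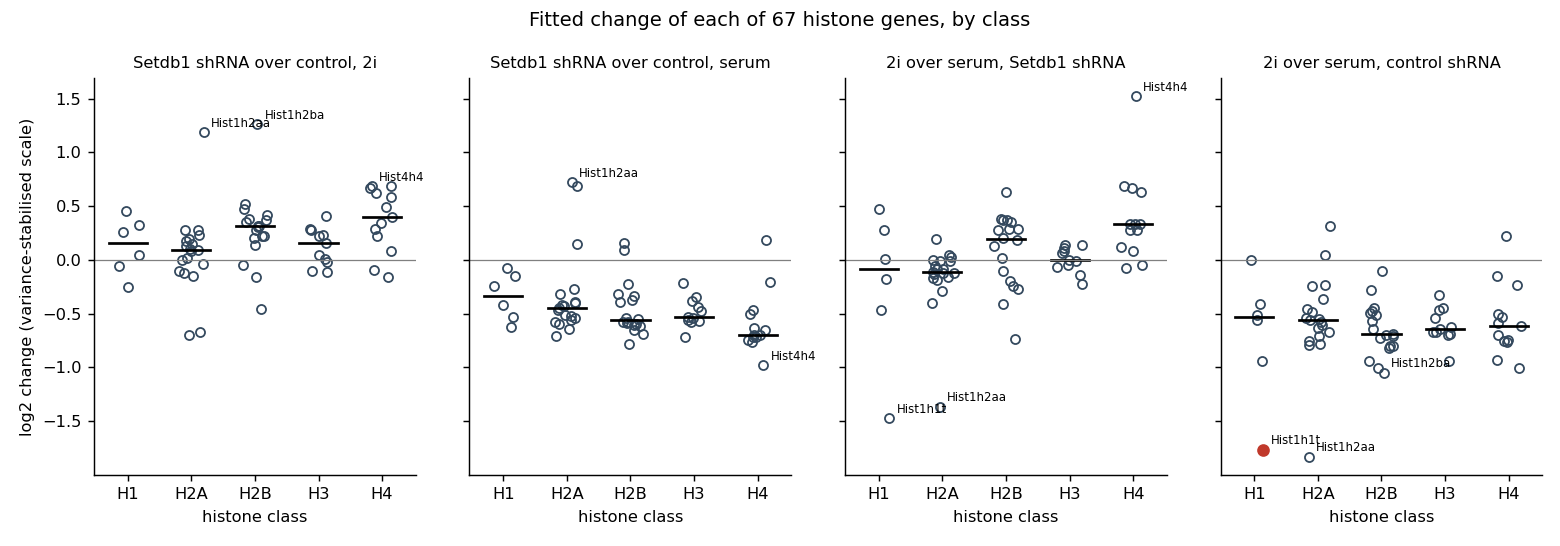
Fitted log2 change of each member by class in 4 comparisons (variance-stabilised scale); open circles did not pass the adjusted p of 0.05, the filled red circle did, and bars are class medians. In serum 61 of 67 members lie below 0 after Setdb1 knockdown and in 2i 17 do, and Hist1h1t is the 1 member past the threshold, in 2i against serum in shScr cells.

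In 2i no member passed either, and the fitted values of most members lay above 0. Here 0 of 67 members passed (2 at an unadjusted p under 0.05, both higher), against 1.27% of all genes kept (1.21% higher and 0.0552% lower), and the groups overlapped for every member, against 4.33% of all genes lower and 6.33% higher without overlap. The fitted change was below 0 for 17 members, against 48.8% of all genes, and its median was 0.22 over the members and 0.01 over all genes. Class medians were 0.16 for H1, 0.09 for H2A, 0.31 for H2B, 0.16 for H3 and 0.40 for H4. The sign of the family's median rested on single libraries: it was -0.31 without replicate 3 of the shSetdb1 cells in 2i, -0.10 without replicate 2 of the shScr cells and 0.63 without replicate 1 of the shSetdb1 cells. By group means, shSetdb1 libraries held 1.22 times the family's reads of shScr libraries and 1.07 times the structural RNA share. Short genes had a median change of 0.31 in this comparison and -0.05 in serum.

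The most abundant members show how far the libraries in 2i spread, and not all lay above 0. Hist2h2bb had 9493, 23219.5 and 32122 normalised reads in shSetdb1 cells, against 20011, 13162 and 37719 in shScr cells (log2 change -0.16 ± 0.51). Hist1h1a (H1.1) had 5876, 16295 and 40045 in shSetdb1 cells, against 11397, 6570.2 and 19680.4 in shScr cells (0.46 ± 0.58). Its lowest and its highest library of all 12 were both shSetdb1 cells in 2i. Hist1h4d had 4958, 9726 and 13901 in shSetdb1 cells, against 9736, 6552 and 14556 in shScr cells (-0.16 ± 0.42). Hist2h2aa1 had 3429, 7152 and 15718 in shSetdb1 cells, against 8114, 4524 and 13007 in shScr cells. In each of these genes replicate 1 was the lowest of the shSetdb1 libraries and replicate 2 the lowest of the shScr libraries. The lowest fitted change in 2i was that of Hist2h2ac, with 1109.8, 2488 and 3526 in shSetdb1 cells, against 4396, 2149.6 and 4550.4 in shScr cells (-0.70 ± 0.39, adjusted p = 0.779). Of the other members the rule named, Hist1h3a had 227, 270.1 and 832 in shSetdb1 cells, against 292, 199 and 347 in shScr cells. Hist1h1b (H1.5) had 1769, 2600.0 and 5599.8 in shSetdb1 cells, against 3620.2, 2710.3 and 4464 in shScr cells, and Hist2h3b had 118, 143 and 448, against 249.9, 124 and 335.

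The change with the hairpin was not shown to differ between media for any member. The difference of the fitted changes (2i minus serum) had a median of 0.60 over the members and 0.01 over all genes, and it was below 0 for 7 members, against 48.9% of all genes kept. It passed for 0 members and for 0 genes of the whole table (0% called; 0 members and 404 genes at an unadjusted p under 0.05), with a median standard error of 0.63 for a member. By class the medians were 0.49 for H1, 0.46 for H2A, 0.86 for H2B, 0.59 for H3 and 1.10 for H4. Short genes had a median difference of 0.35. Hist4h4 had the largest difference, 1.67 ± 1.13 (adjusted p = 1.00), and in shSetdb1 cells in 2i its libraries ran over 356, 1271 and 6855 normalised reads, against 785, 466 and 2008 in shScr cells in 2i. The median of the members was 0.18 without replicate 3 of the shSetdb1 cells in 2i and 1.08 without replicate 1.

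Between media, in shScr cells, 1 member fell and most others lay lower in 2i. Hist1h1t, the testis-type linker histone gene, had 19.5, 64.8 and 66.9 normalised reads in 2i, against 245, 213 and 279 in serum, which is 4.88-fold lower in 2i by the group means. The groups are far apart, and its log2 change was -1.76 ± 0.41 (adjusted p = 0.0271 by limma, 3 of 3 libraries lower). It was the only member to pass, 1 of 67 members against 3.62% of all genes kept (1.73% higher and 1.88% lower). At an unadjusted p under 0.05, 5 members were lower and 0 higher. The fitted change was below 0 for 64 members, against 54.4% of all genes, with a median of -0.61 over the members and -0.05 over all genes. In 14 members all 2i libraries lay below all serum libraries (20.9%, against 12.8% of all genes kept; 0 members lay above, against 11% of genes), 2 of H1, 5 of H2A, 4 of H2B and 3 of H3. Class medians were -0.53 for H1, -0.56 for H2A, -0.69 for H2B, -0.64 for H3 and -0.61 for H4. The structural RNA share went the other way, at 1.33 times the serum value by group means, and short genes had a median change of 0.00. With the share as a covariate 18 members passed, all lower in 2i, against 8.24% of all genes.

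The call on Hist1h1t is narrow. Its adjusted p was above 0.05 without any 1 of the 6 shScr libraries (0.0570 to 0.0997), and 0.121 with no filter on low values, while the change kept its direction with values of -1.93 to -1.45. In shSetdb1 cells it had 11.5, 105 and 63.6 normalised reads in 2i, against 165, 199.6 and 243 in serum, again with no overlap (log2 change -1.47 ± 0.41, adjusted p = 0.0614). Within each medium the shSetdb1 and shScr libraries overlap, with log2 changes of 0.05 ± 0.41 in 2i and -0.24 ± 0.41 in serum. Read counts behind the 2i values were small, 15 to 103 reads per library, against 217 to 261 in serum.

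**Figure D5:**
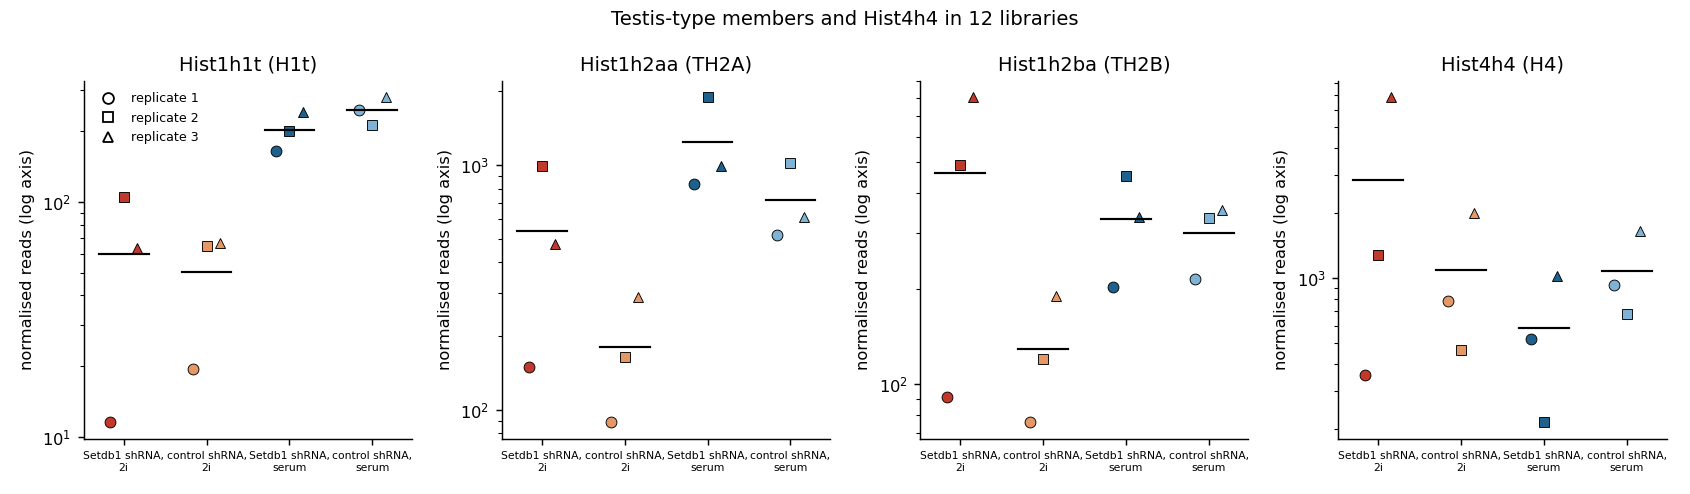
Normalised reads (log axis) of the testis-type members Hist1h1t, Hist1h2aa and Hist1h2ba and of Hist4h4 in 12 libraries; symbols are replicates 1 to 3 and lines are arithmetic group means. All 6 Hist1h1t libraries in 2i, 11.5 to 105, lie below all 6 in serum, 165 to 279.

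The other testis-type members share a promoter region but not the whole of this pattern. Hist1h2aa had 88.8, 164 and 288 normalised reads in shScr cells in 2i, against 519, 1019.9 and 615 in shScr cells in serum, with no overlap (log2 change -1.83 ± 0.52, adjusted p = 0.0689). This call depends on the setting: Hist1h2aa passed with only the compared groups (adjusted p = 0.0364), with the block shared by the 4 groups (0.00334), with the structural RNA covariate (0.00795) and without replicate 1 (0.0150) or 2 (0.0424) of the shSetdb1 cells in 2i. Leaving out other libraries gave an adjusted p of up to 0.231. In shSetdb1 cells it had 149.9, 992 and 476 in 2i, against 837, 1889.9 and 989 in serum, and these overlap (-1.37 ± 0.52, adjusted p = 0.174, and 0.0176 with the shared block and 0.0402 with the covariate). With the hairpin the groups overlap in both media, and the change in 2i was 1.18 ± 0.52 (adjusted p = 0.615). Hist1h2ba had 91.5, 492 and 802 in shSetdb1 cells in 2i, against 75.8, 120.0 and 190.1 in shScr cells in 2i (1.26 ± 0.53, adjusted p = 0.572), the largest fitted change of the family in that comparison. Replicate 1 of the shSetdb1 cells in 2i decides that call: without it the change was 2.05 (adjusted p = 0.00905). In serum Hist1h2ba had 202, 454 and 336 in shSetdb1 cells, against 214, 333 and 354 in shScr cells (0.09 ± 0.53). Between media its change in shSetdb1 cells was 0.13 ± 0.53, and in shScr cells its 3 libraries in 2i lay below its 3 in serum (-1.05 ± 0.53, adjusted p = 0.335). None of these changes passed, and their differences from those of Hist1h1t were not tested.

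In shSetdb1 cells 0 of 67 members differed between 2i and serum (2 at an unadjusted p under 0.05, both lower), against 3.75% of all genes kept (2.15% higher and 1.6% lower). The median change was 0.01 over the members and -0.05 over all genes, with 32 members below 0, against 53.8% of all genes. Without replicate 3 of the shSetdb1 cells in 2i it was -0.49, and without replicate 1 it was 0.49. H4 genes had a median of 0.33 and H2A genes one of -0.11. The structural RNA share in 2i was 1.96 times the serum value by group means, and short genes had a median change of 0.34. In 2 members, Hist1h1t and the near-silent Hist2h2be, all 2i libraries lay below all serum libraries (2.99%, against 10.1% of all genes), and in 0 they lay above (8.99% of all genes). This comparison shares its libraries with the knockdown comparisons, so it is no separate observation.

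Genes that serve the family were measured from lists. The shares of all genes called, for reading these counts, were 0.649% with the hairpin in serum, 1.27% in 2i, 3.62% between media in shScr cells and 3.75% in shSetdb1 cells. Of 22 genes for histone pre-mRNA processing and the histone locus body, such as Slbp, Npat and Casp8ap2, 0 passed in any of the 5 comparisons, and their median change with the hairpin was -0.26 in 2i and -0.09 in serum. Sympk, a scaffold of the cleavage complex, had the largest change of this list in 2i, 425 ± 192 normalised reads in shSetdb1 cells, against 726 ± 166 in shScr cells (log2 change -0.77 ± 0.34, adjusted p = 0.597). None of 19 histone chaperone and import genes passed, nor of 10 genes of replacement and variant histones, which are made outside S phase as well. Of 44 S-phase and replication genes 0 passed with the hairpin, and their medians were -0.23 in 2i and -0.02 in serum. Between media 1 of these passed: Ccne1, which encodes cyclin E1, had 614 ± 151 in 2i and 2242 ± 282 in serum in shSetdb1 cells (-1.82 ± 0.33, adjusted p = 0.00697), and 1031 ± 388 in 2i and 2455 ± 863 in serum in shScr cells (-1.22 ± 0.33, adjusted p = 0.0533). Of 30 G2 and mitosis genes 1 passed, Mad2l1, a spindle checkpoint gene, with 1351 ± 149 in 2i and 3378 ± 614 in serum in shSetdb1 cells (-1.29 ± 0.27, adjusted p = 0.0172). The median of this list was -0.36 with the hairpin in 2i and -0.07 in serum. Between media it was -0.64 in shSetdb1 cells and -0.28 in shScr cells. Of 12 genes of G1 control, Cdkn1c, a cyclin-dependent kinase inhibitor gene, fell in 2i in both, to 53.6 ± 53.4, against 543 ± 286 in serum, in shSetdb1 cells, and to 30.1 ± 19.0, against 702 ± 310 in serum, in shScr cells. Rb1, the retinoblastoma gene, fell to 189 ± 77.0 normalised reads in 2i, against 500.4 ± 52.8 in serum, in shScr cells (-1.30 ± 0.34, adjusted p = 0.0494; SD and n = 3 for all levels here). The median of the 12 genes of G1 control went the other way between media, at 0.20 in shSetdb1 cells and 0.26 in shScr cells.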

How the data were processed

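RNA from 12 libraries was sequenced after removal of ribosomal RNA. Build mm9 is listed in the submitters' processing notes, along with DESeq2, the aligner TopHat2 (version 2.0.9) and the trimmer Trim Galore (version 0.3.3). How reads were counted (tool, annotation, strand, reads that fit several genes) is not given in the sources used here. The deposited values are on a variance-stabilised log2 scale, scaled by library size by the authors, in a gene table and a repeat table, per the file names and the labels' list of tools. Inverting the transformation gave whole reads for 100% of values (within 0.01 read), and normalised reads are those reads divided by each library's size factor.

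Genes whose mean was at least 0.5 above the lowest value of the table (14487 of 26061) entered a limma fit (version 3.58.1, under R 4.3.3) of the deposited log2 values. The fit had 1 mean for each of the 4 groups, 8 residual degrees of freedom and a mean-variance trend, with Benjamini-Hochberg adjustment over all genes kept and a threshold of 0.05. Fold changes by group means use normalised reads, and fitted log2 changes understate changes of low genes. The script was tested on simulated data. Sequences and transcript lengths came from RefSeq GRCm38.p6 and GENCODE M21, matched by symbol (67 members in GENCODE, 60 with a RefSeq promoter), and no coordinates of the files' build were used. Deviations of same-numbered shSetdb1 and shScr libraries correlated at 0.58, 0.23 and 0.51 in serum and at 0.46, 0.06 and 0.52 in 2i, so the numbers were taken to pair libraries in serum only. Python 3.11.15, pandas 2.3.3, scipy 1.17.1 and matplotlib 3.10.9 were used for the rest.

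The members and gene lists were chosen with earlier results of these data known. A rule named the most abundant member of each class and every member that passed. It also named the member of each class with the largest rise or fall in each knockdown comparison. Not all values of these members are given. Library values of Hist2h3c1, the most abundant H3 gene, are left out. Those of the other most abundant members are left out in serum. From the lists of genes that serve the family, group means are given for genes that passed. Where none passed in a comparison, the gene with the largest change is mostly left out, as are Dut, Ccnd1 and Rbbp7 with the hairpin in serum. The alternatives tried were replicate blocks, voom with TMM on recovered reads, other scalings and filters, no trend, a structural RNA covariate, the compared groups alone, and each library left out. Centring on short genes was added after seeing the data.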

Additional observations from a re-analysis of the deposited data

How the results depend on the processing

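With the replicate number as a block shared by the 4 groups, 6 members passed as lower in 2i in shScr cells, against 1 without it, and 3 members passed between media in shSetdb1 cells (Hist4h4 higher, Hist1h1t and Hist1h2aa lower), against 0. Genes called over the whole table went up with this block as well, to 1351 in shScr cells (9.33% of genes kept), against 524, and to 1583 in shSetdb1 cells (10.9%), against 543. With the replicate block within medium, 1 member, Hist1h2ba, passed in 2i (log2 change 1.26, adjusted p = 0.0484), and the genes called numbered 425 (2.93%), against 184. No other call on a member with the hairpin changed under a block, and that block could not be estimated between media, where it is nested in the medium. The numbers were not taken to pair libraries across media or in 2i, because replicate 2 fell short in the correlation of deviations. For replicate 2 it was 0.06 in 2i, and between media 0.005 in shSetdb1 cells and -0.18 in shScr cells. Replicates 1 and 3 correlated at 0.46 and 0.52 in 2i. Between media they correlated at 0.50 and 0.44 in shSetdb1 cells and at 0.23 and 0.22 in shScr cells.

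With the structural RNA share as a covariate, 1 member (Hist3h2a, higher) passed with the hairpin in serum, against 1.53% of all genes kept. In that fit 18 members passed between media in shScr cells (8.24% of genes) and 3 in shSetdb1 cells (3.55% of genes), all lower in 2i, and the median in shSetdb1 cells between media was -0.64, against 0.01. Between media in shScr cells, 0 members passed with no filter on low values and 2, Hist1h1t and Hist1h2aa, with only the compared libraries. In shSetdb1 cells, 1 passed with libraries centred on the median and 1 with quantile normalisation, in both cases Hist1h1t. Centring on short genes moved the median of all genes to -0.12 with the hairpin in serum, -0.30 in 2i, -0.20 between media in shScr cells and -0.39 in shSetdb1 cells. The members' median was then -0.64, -0.08, -0.76 and -0.33 in the same comparisons. The cause of these shifts was not tested.

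Leaving out 1 library at a time, the members called numbered 0 to 0 in serum, 0 to 1 in 2i, 0 to 0 for the difference, 0 to 2 between media in shScr cells and 0 to 1 in shSetdb1 cells. The members' medians ranged over -0.74 to -0.28, -0.31 to 0.63, 0.18 to 1.08, -0.88 to -0.29 and -0.49 to 0.49 in these comparisons. Where this left 1 group with 2 libraries, the spread was still pooled over the 4 groups. Depth limits the low members most, since replicate 3 of shSetdb1 cells in 2i had 4821181 gene reads.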

Other observations

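Among genes that are no histone members, 10 were named as varying most like the histone mean over the 12 libraries, with group means removed. They were Rps4x (r = 0.99), a gene of the small ribosomal subunit, the small nucleolar RNA host transcript Snhg7 (0.99), Ndufb11 (0.98) and Ndufa8 (0.98) of respiratory complex I, the pseudogenes Rps19-ps2 (0.98) and Rps19-ps1 (0.98), RP23-333M15.8 (0.98), the ribosomal gene Rpl18 (0.98), Cuedc2 (0.98) and Sec61b (0.98). They were picked as the most alike of all genes kept and no theme was tested in them, so the values are a description.

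The deviation of a library from its group mean was ordered by annotated transcript length in the extreme libraries. In replicate 1 of shSetdb1 cells in 2i the median deviation (log2) was -0.65 for genes under 500 bases, -0.61 for 500 to 1000, -0.24 for 1000 to 2000, 0.01 for 2000 to 4000, 0.28 for 4000 to 8000 and 0.52 for genes of 8000 bases or more. In replicate 3 of that group the medians were 0.51, 0.49, 0.21, -0.01, -0.22 and -0.37 in the same classes. The histone members were at -0.87 in replicate 1 and at 1.01 in replicate 3, beyond the shortest class in both libraries. The part of transcript length in the histone values was not tested.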
